A study of Rattus norvegicus with 10 samples.

Results

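The liver makes most of the plasma's lipoproteins, and 10 genes of that work were followed here in rat liver after sulfur mustard (SM): Apoa1, Apoa2, Apoa4, Apoa5, Apob, Apoc3, Apoe, Apoh, Lipc and Mttp. Members were the array probes whose accession belongs to 1 of these symbols. All 10 genes were found, with 16 probes of the 41012 on the array: 5 for Apob, 2 each for Apoc3 and Mttp, and 1 for each of the other 7 genes. Liver RNA of 10 male Sprague Dawley rats was hybridized to 10 single-colour Agilent Whole Rat Genome arrays, 1 array per rat. The 3 control rats were injected under the skin with the solvent, propylene glycol, alone. The 4 SM rats received a single injection of SM, an alkylating vesicant, at 3.5 mg/kg (0.7 of the LD50) in the same solvent, and the 3 SM + MSTF rats received the same SM dose and, 1 h later, 120 mg/kg MSTF by gavage. MSTF is a mixture of salvianolic acids of Salvia miltiorrhiza and total flavonoids of Anemarrhena asphodeloides. Liver was collected 24 h after SM in every group. The age of the rats is not given in the sources used here, and no array is of a rat given MSTF without SM.

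Lipoproteins carry water-insoluble lipid through the blood in particles wrapped in apolipoproteins. Hepatocytes build very-low-density lipoprotein (VLDL) around apolipoprotein B, onto which microsomal triglyceride transfer protein loads lipid. Apolipoproteins A-I and A-II form the scaffold of high-density lipoprotein (HDL), the apolipoproteins A-V and C-III set how fast triglyceride is removed from the particles, and apolipoprotein E is the ligand by which remnants are taken up. In liver the RNAs of the apolipoprotein genes are among the most abundant, and transcription of lipoprotein genes depends on hepatocyte factors such as HNF4A and C/EBP.

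Of the 10 genes, only Apoa2 changed past the threshold. Its signal rose after SM and was at the same height after SM + MSTF, while that of Apoa1, the partner of apolipoprotein A-II on HDL, lay below the controls in both treated groups without passing the test. The other 8 genes were not called in any comparison. A probe is called here where limma's Benjamini-Hochberg adjusted p over the 22991 tested probes was under 0.05 and the change at least 1.5-fold.

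In the RefSeq table of the assembly GRCr8, Apoa1, Apoc3, Apoa4 and Apoa5 are 4 consecutive genes on chromosome 8, Lipc lies elsewhere on that chromosome, and Apoa2 lies on chromosome 13 between Tomm40l and Fcer1g. Promoter sequences (250 bases before to 50 after a gene's start, from RefSeq, GRCr8) were at hand for 5 of the 10 genes, with 8 starts in all. None was at hand for Apoa1, Apoa2, Apoc3, Apob or Mttp. Those of the neighbours Apoa4 and Apoa5 are shown because their signals spread differently across rats, and a link between sequence and signal was not tested. Each is written 5′ to 3′ on the gene's own strand, with matches to the 3 motifs searched on both strands in capitals.
Apoa4 (chr8:55435529-55435828, plus strand): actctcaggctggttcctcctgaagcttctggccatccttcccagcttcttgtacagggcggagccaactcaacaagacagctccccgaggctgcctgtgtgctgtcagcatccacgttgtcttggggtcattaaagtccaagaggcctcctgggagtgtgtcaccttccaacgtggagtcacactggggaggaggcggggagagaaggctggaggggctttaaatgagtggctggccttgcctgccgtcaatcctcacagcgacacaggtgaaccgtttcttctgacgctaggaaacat
Apoa5, first of 2 starts (chr8:55457621-55457920, plus strand): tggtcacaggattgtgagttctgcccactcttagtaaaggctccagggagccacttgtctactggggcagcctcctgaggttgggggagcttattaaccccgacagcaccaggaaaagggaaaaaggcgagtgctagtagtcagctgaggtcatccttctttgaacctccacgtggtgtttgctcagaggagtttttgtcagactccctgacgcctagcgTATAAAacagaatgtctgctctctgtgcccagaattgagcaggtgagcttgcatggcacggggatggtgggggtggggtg
The TATA-box motif TATAAA stands at position -30 from the first Apoa5 start, and the second Apoa5 start, a little downstream, holds the same stretch farther away. CAAAGTCCA (HNF4A) and TTGCNNAA (C/EBP) were in none of the 8. Among all 33469 promoters of the table, 14.2% hold the TATA-box motif, 0.391% that of HNF4A and 10.6% that of C/EBP. Finding or missing these letters in a window is a description of sequence, not of binding.

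All 16 probes were well above background on all 10 arrays, and no spot was saturated. For 9 of the 16 probes (Apoa1, Apoa2, Apoa4, Apoa5, both of Apoc3, Apoe, the brightest of Apob, and Apoh) the scanner software had read the spot from a low-gain scan and scaled it up on all 10 arrays, as it did for 527 tested probes in all. Between 51.9% and 61.4% of probes per array were well above background, and arrays of the same group correlated at r = 0.977 to 0.991 across probes, arrays of different groups at 0.969 to 0.988. There were 3 slides. Controls and SM + MSTF replicate 3 shared slide 1, the 4 SM arrays filled slide 2, and SM + MSTF replicates 1 and 2 were on slide 3, so SM and slide 2 cannot be told apart. Livers were measured whole, and fewer cells of a type and less RNA per cell cannot be told apart either. All 11 hepatocyte markers examined (Alb, Ttr and the like) were well above background on all 10 arrays, and 0 of them was called in any comparison. Their summed signal ranged from 2330000 to 2430000 in controls, from 2330000 to 2380000 after SM and from 2210000 to 2380000 after SM + MSTF. Quantile normalization gives every array the same set of values, so a sum over such bright probes can move little and says little about hepatocyte content. Of the markers of small intestinal enterocytes, which also make Apoa1, Apoa4, Apob and Mttp, Alpi, Lct and Vil1 were not above background on any array. The 2 enterocyte markers tested had a median difference of -0.29 between SM and control rats, -0.96 between SM + MSTF rats and controls, and -0.67 between the treated groups (SM + MSTF minus SM), and the 5 with a probe a summed signal of 1150 to 1300 in controls, 936 to 1370 after SM and 538 to 1140 after SM + MSTF. Of 9 marker lists, 0 held a called gene; the 4 erythroid markers with a probe had the median farthest from 0 in SM versus control, at 0.91 (0.62 and -0.30 in the other pairs of groups, in the same order), with a summed signal of 1730 to 5640 in controls, 3410 to 9320 after SM and 3910 to 7170 after SM + MSTF. The 6 markers of Kupffer cells and macrophages had medians of -0.12, 0.34 and 0.45, and the 1 pancreatic acinar marker tested 0.19, -0.58 and -0.77. The part of these markers in the results was not tested.

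**Figure D1:**
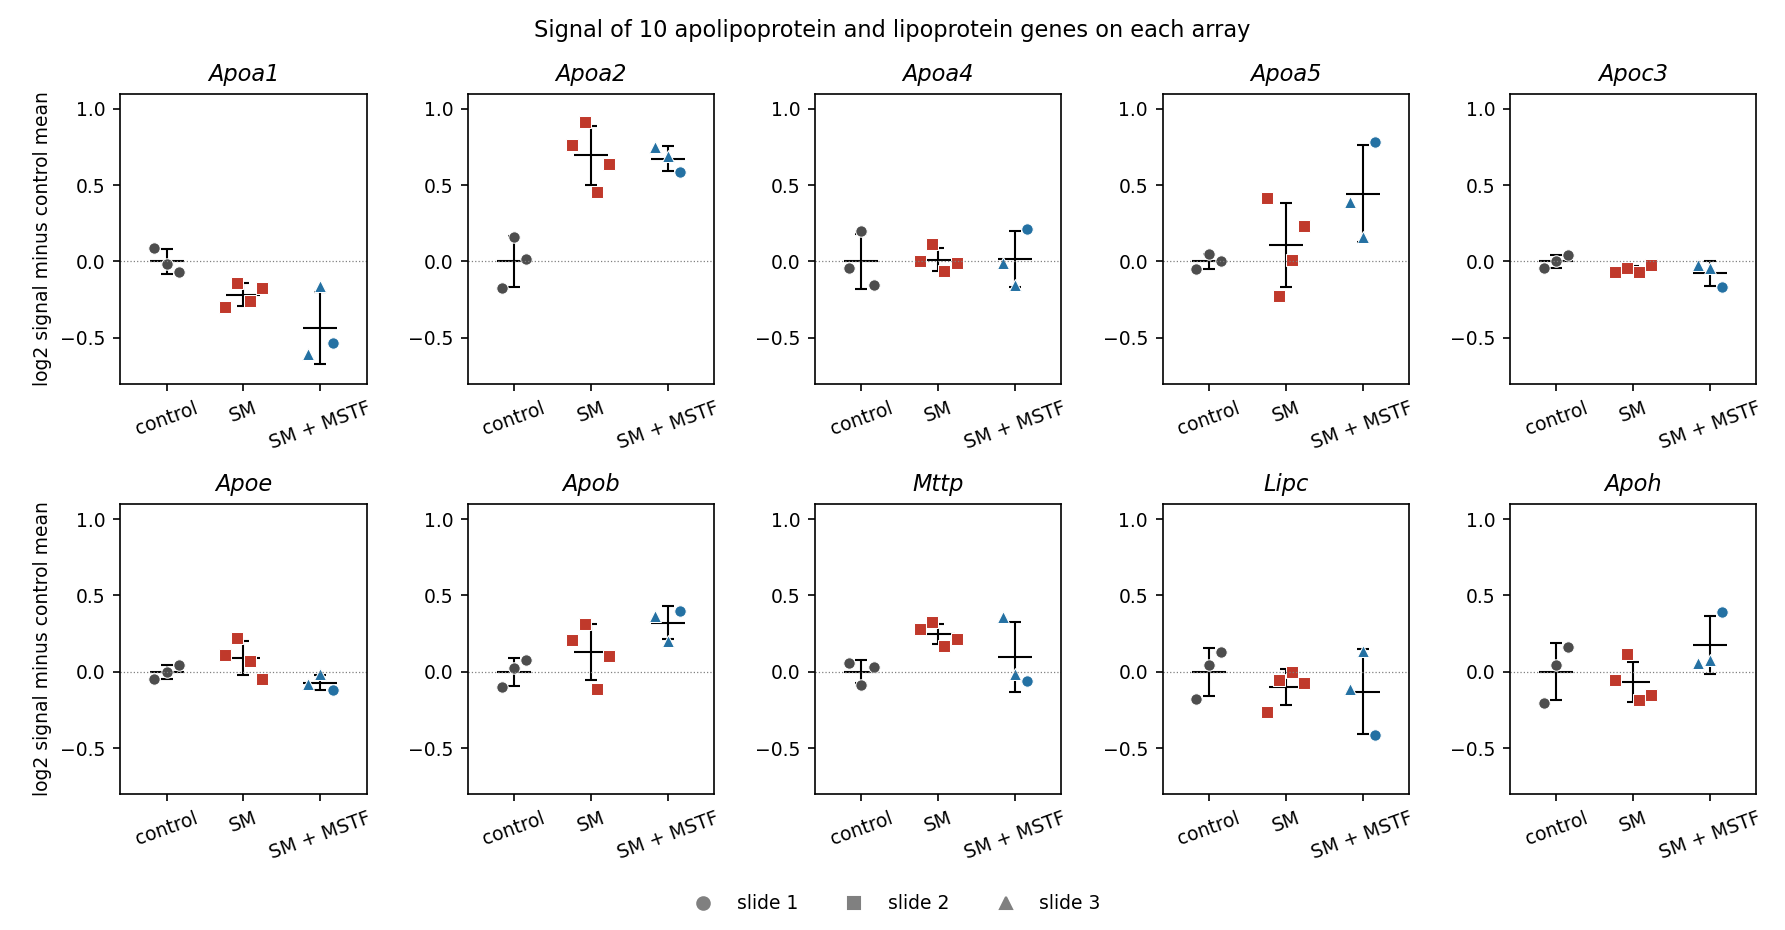
Quantile-normalized log2 signal of each gene on each array, minus the mean of the 3 controls (vertical axes), by group; points are rats, their shape is the slide, and bars give the group mean ± SD. Apoa2 is the gene whose SM and SM + MSTF arrays all lie above the controls, 0.46 to 0.92 over their mean, and Apoa1 lies below them.

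Apoa2 encodes apolipoprotein A-II, a protein of HDL. Its log2 signal was 16.51, 16.85 and 16.71 in control rats 1 to 3. It was 17.45, 17.61, 17.15 and 17.33 in SM rats 1 to 4, and 17.44, 17.38 and 17.27 in SM + MSTF rats 1 to 3. Every treated rat lay above every control, and the SM + MSTF rats lay within the range of the SM rats. The SM mean was 17.38 ± 0.19 (SD, n = 4) against 16.69 ± 0.17 (SD, n = 3), a rise of 0.69 on the log2 scale (SE 0.13, 1.62-fold, 95% interval 1.33 to 1.97, adjusted p = 0.0263 with limma). Apoa2 was also past the threshold in limma's F-test over the 3 groups (adjusted p = 0.0412), the only member probe that was, where 2.07% of all tested probes were.

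After SM + MSTF the Apoa2 mean was 17.36 ± 0.08 (SD, n = 3), 0.67 above the controls (SE 0.14, 1.59-fold, 95% interval 1.29 to 1.97). Its unadjusted p with limma was 0.000672, and after adjustment it was 0.348, which is not past the threshold; 41 probes had a smaller p, and the smallest adjusted p of any probe in this comparison was 0.246. Against SM alone the difference was -0.02, with a 95% interval of -0.31 to 0.26, so any ratio from 0.808 to 1.20 is within the error. SM versus control and SM + MSTF versus control share the 3 control arrays. Within slide 1, SM + MSTF replicate 3 lay 0.58 above the control mean, and the pair on slide 3 averaged 0.72 above them.

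The Apoa2 difference in SM versus control stayed above 0 in all 25 alternatives tried, and its call held in 16 of them. With each array left out in turn the SM difference was 0.60 to 0.78, and the call was lost without any single control (adjusted p = 0.0977, 0.0784 and 0.0896 without controls 1, 2 and 3) and without SM replicate 1, 2 or 4 (0.0751, 0.0521 and 0.0561). When slide was a random block, the difference was 0.69 and limma's adjusted p 0.0862. Of the 527 tested probes scaled up from the low-gain scan on all arrays, Apoa2 was the only one called in SM versus control. Of all tested probes 2.41% were called. The median difference of the 527 was 0.01, with quartiles of -0.10 and 0.11. Quantile normalization can compress the differences of such bright probes, so this count says little about the low-gain scan.

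Apoa1 encodes apolipoprotein A-I, the main protein of HDL and the activator of the enzyme that esterifies its cholesterol. Its log2 signal was 16.99, 16.88 and 16.83 in the controls, 16.60, 16.76, 16.64 and 16.73 in the SM rats, and 16.30, 16.74 and 16.37 in the SM + MSTF rats. Every treated rat lay below every control, by the most in SM + MSTF replicates 1 and 3. The difference was -0.22 for SM (SE 0.12, 95% interval -0.48 to 0.05, adjusted p = 0.405 with limma) and -0.43 for SM + MSTF (SE 0.13, 1.35-fold lower, 95% interval -0.71 to -0.15). The latter had an unadjusted p of 0.00654 and an adjusted p of 0.423, so neither was called. Within slide 1 the SM + MSTF array lay 0.53 below the controls, a log2 difference of -0.53.

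The opposite placement of the HDL pair was seen rat by rat, a description chosen after the values were known. Taking each gene's signal minus its own control mean, the change of Apoa2 exceeded that of Apoa1 by -0.26 to 0.18 in the 3 controls, by 0.72 to 1.06 in the 4 SM rats and by 0.85 to 1.35 in the 3 SM + MSTF rats. Every treated rat was already above the controls for Apoa2 and below them for Apoa1, so the separation follows from the choice of the pair. A scale factor common to a whole array cancels in this difference, and an effect of slide on 1 of the probes does not. Neither was tested. Scaling each array to its 75th percentile instead gave -0.35 to 0.21 in the controls, 0.65 to 1.07 in the SM rats and 0.92 to 1.32 in the SM + MSTF rats.

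**Figure D2:**
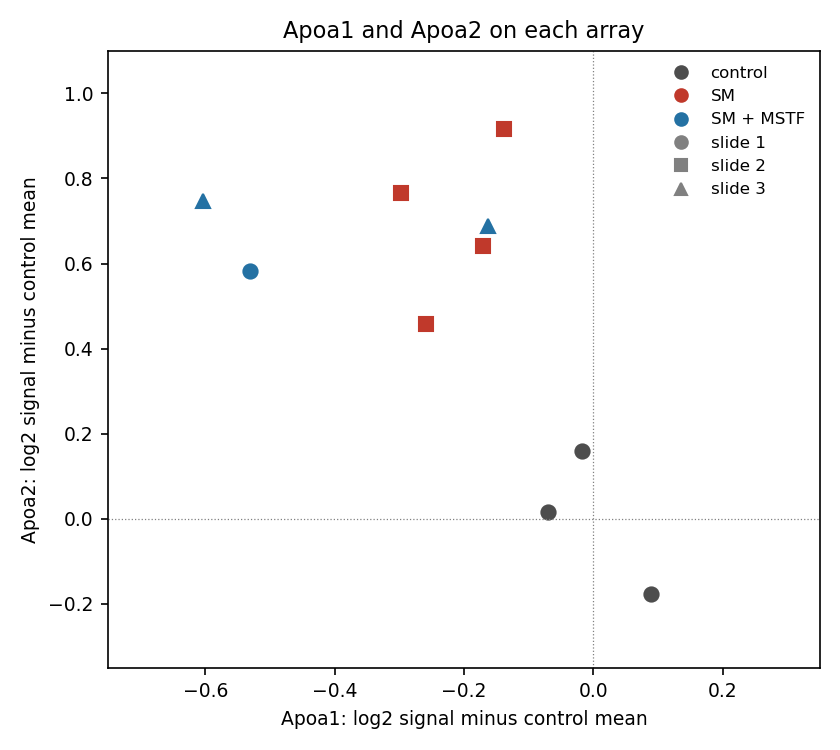
Apoa2 (vertical axis) against Apoa1 (horizontal axis) on each of the 10 arrays, both as log2 signal minus the mean of the 3 controls; colour is the group and shape the slide. The treated rats sit at the upper left of the controls, with Apoa2 at 0.46 to 0.92 and Apoa1 at -0.60 to -0.14.

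Apoa4, which encodes an apolipoprotein of triglyceride-rich particles and HDL and which fasting and fat load are known to move, showed no difference. The controls were at 17.12, 17.37 and 17.01, the SM rats at 17.17, 17.28, 17.10 and 17.16, and the SM + MSTF rats at 17.16, 17.01 and 17.38. All 3 groups overlapped. The difference was 0.01 for SM versus control (95% interval -0.26 to 0.28), 0.02 for SM + MSTF versus control (-0.27 to 0.30) and 0.00399 between the treated groups (-0.26 to 0.27), so changes beyond about 1.23-fold lie outside each interval.

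Apoa5 encodes apolipoprotein A-V, which helps lipoprotein lipase to act on VLDL. Its controls lay close together at 16.13, 16.22 and 16.17, while the treated rats were spread out: 16.59, 15.95, 16.19 and 16.41 after SM, and 16.57, 16.33 and 16.96 after SM + MSTF. The SM rats surrounded the controls, and the SM + MSTF rats all lay above them. The differences were 0.11 for SM (95% interval -0.29 to 0.51), 0.44 for SM + MSTF versus control (95% interval 0.02 to 0.87, unadjusted p = 0.0422, adjusted p = 0.507 with limma) and 0.33 for SM + MSTF versus SM (-0.06 to 0.73). SM + MSTF replicate 3, on the slide of the controls, carried the highest value, and without it the difference from control was 0.28.

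Apoc3 encodes apolipoprotein C-III, which slows the removal of triglyceride-rich particles, and is the neighbour of Apoa1 and Apoa4. Its brighter probe gave 18.52, 18.56 and 18.60 in the controls, 18.49, 18.52, 18.49 and 18.54 after SM, and 18.54, 18.52 and 18.39 after SM + MSTF. The other probe gave 18.01, 17.95 and 18.02, then 18.13, 18.04, 18.08 and 18.01, then 18.07, 17.87 and 17.90. Groups overlapped on both probes, and no difference on either probe was larger than 0.12 in size on the log2 scale (95% intervals within -0.31 to 0.26). At the top of the intensity range quantile normalization leaves little more than a probe's rank: over the 10 arrays the brighter probe spanned 0.21 after it and 0.43 after scaling to the 75th percentile. On that other scale SM replicate 3 was the highest array for both Apoc3 probes and for Apoe.

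Apoe encodes apolipoprotein E, by which remnant particles bind the LDL receptor and LRP1. The controls were at 18.40, 18.45 and 18.49, the SM rats at 18.56, 18.67, 18.52 and 18.40, and the SM + MSTF rats at 18.37, 18.43 and 18.33. SM overlapped the controls with 3 of its 4 rats above them, and SM + MSTF overlapped both groups. The differences were 0.09 for SM (95% interval -0.11 to 0.29), -0.07 for SM + MSTF versus control (-0.28 to 0.14) and -0.16 between the treated groups (-0.36 to 0.04), with limma's adjusted p of 0.672, 0.839 and 0.395.

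Apob encodes the structural protein of VLDL and LDL, 1 copy to a particle, and was read by 5 probes. The brightest, probe 1, gave 16.33, 16.45 and 16.51 in the controls, 16.64, 16.75, 16.32 and 16.53 after SM, and 16.80, 16.63 and 16.83 after SM + MSTF. Its SM + MSTF rats all lay above the controls, by 0.32 on average (SE 0.12, unadjusted p = 0.0284, adjusted p = 0.477 with limma), and its SM rats overlapped them at 0.13 (SE 0.12). On probes 2 to 5 the SM difference was 0.18, 0.35, 0.03 and 0.40, and that of SM + MSTF 0.03, 0.26, 0.01 and 0.24, with overlap on all 4. Probe 5 had the smallest p of the 5 in SM versus control (unadjusted p = 0.0355, adjusted p = 0.26).

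Apob probes 2 to 5 followed each other from rat to rat, and probe 1 did not follow them throughout. Within the controls, probes 2 to 5 were on average 0.29 above their control mean in rat 1, 0.04 in rat 2 and -0.34 in rat 3. Probe 1 was at -0.10, 0.02 and 0.08 on the same 3 arrays. After SM, all 4 of probes 2 to 5 were lowest in rat 4 and highest in rat 1 or 2, while probe 1 was lowest in rat 3. After SM + MSTF, all 4 were highest in rat 1 and lowest in rat 2, and probe 1 was lowest in rat 2 as well. Probe 1 was scaled up from the low-gain scan on all 10 arrays and the others on 0; whether that, or the part of the transcript a probe reads, moves with the split was not tested, and the probes' positions are not given in the sources used here. Averaging the 5 probes gave SM + MSTF versus control 0.17 instead of 0.32, and SM + MSTF versus SM -0.04 instead of 0.19.

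**Figure D3:**
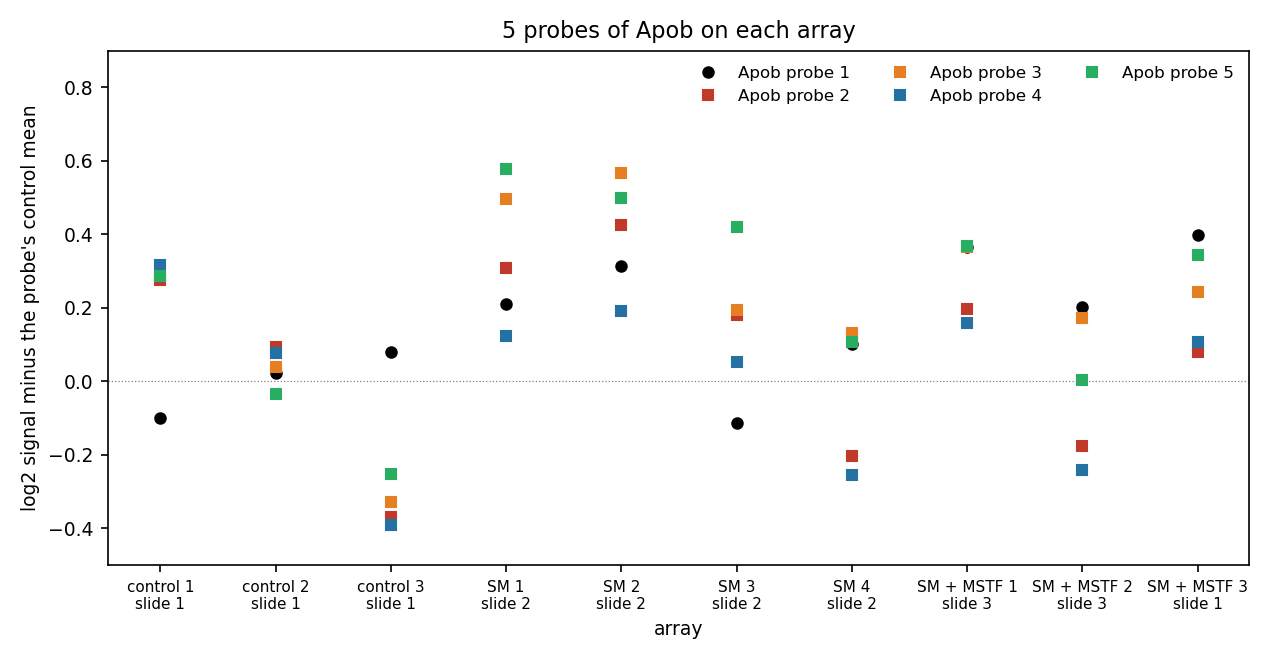
The 5 Apob probes on each array, as log2 signal minus each probe's own control mean (vertical axis); arrays and their slides are along the horizontal axis, the black circles are probe 1 and the squares probes 2 to 5. In the controls the squares average 0.29 in rat 1 and -0.34 in rat 3, where the circles are at -0.10 and 0.08.

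Mttp encodes the large subunit of the microsomal triglyceride transfer protein, without which apolipoprotein B is degraded. Its brighter probe gave 11.73, 11.59 and 11.70 in the controls, 11.95, 12.00, 11.84 and 11.89 after SM, and 12.03, 11.66 and 11.61 after SM + MSTF. All 4 SM rats lay above all 3 controls, and after SM + MSTF only rat 1 did. The SM difference was 0.25 (SE 0.11, 1.19-fold, 95% interval -0.01 to 0.50, adjusted p = 0.322 with limma), and that of SM + MSTF 0.10 (SE 0.12, adjusted p = 0.827). The dim probe, at 7.00 to 7.51 on all arrays, gave 0.15 and 0.11, with groups that overlapped.

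Lipc encodes hepatic lipase, which is anchored in the liver sinusoids and trims HDL and remnants. It gave 12.99, 13.21 and 13.29 in the controls, 12.90, 13.11, 13.16 and 13.09 after SM, and 13.05, 13.30 and 12.75 after SM + MSTF. The groups overlapped, with differences of -0.10 (SE 0.14) for SM and -0.13 (SE 0.15) for SM + MSTF. The latter rested on replicate 3: without it the difference was 0.01.

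Apoh encodes beta-2-glycoprotein I, a plasma protein that binds anionic phospholipid. Its values were 17.16, 17.41 and 17.52 in the controls, 17.31, 17.48, 17.18 and 17.21 after SM, and 17.42, 17.44 and 17.75 after SM + MSTF. The groups overlapped, and the differences were -0.07 (SE 0.13) for SM, 0.17 (SE 0.14) for SM + MSTF versus control and 0.24 (SE 0.13, adjusted p = 0.383 with limma) for SM + MSTF versus SM. Here too replicate 3, on slide 1, was the highest array.

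**Figure D4:**
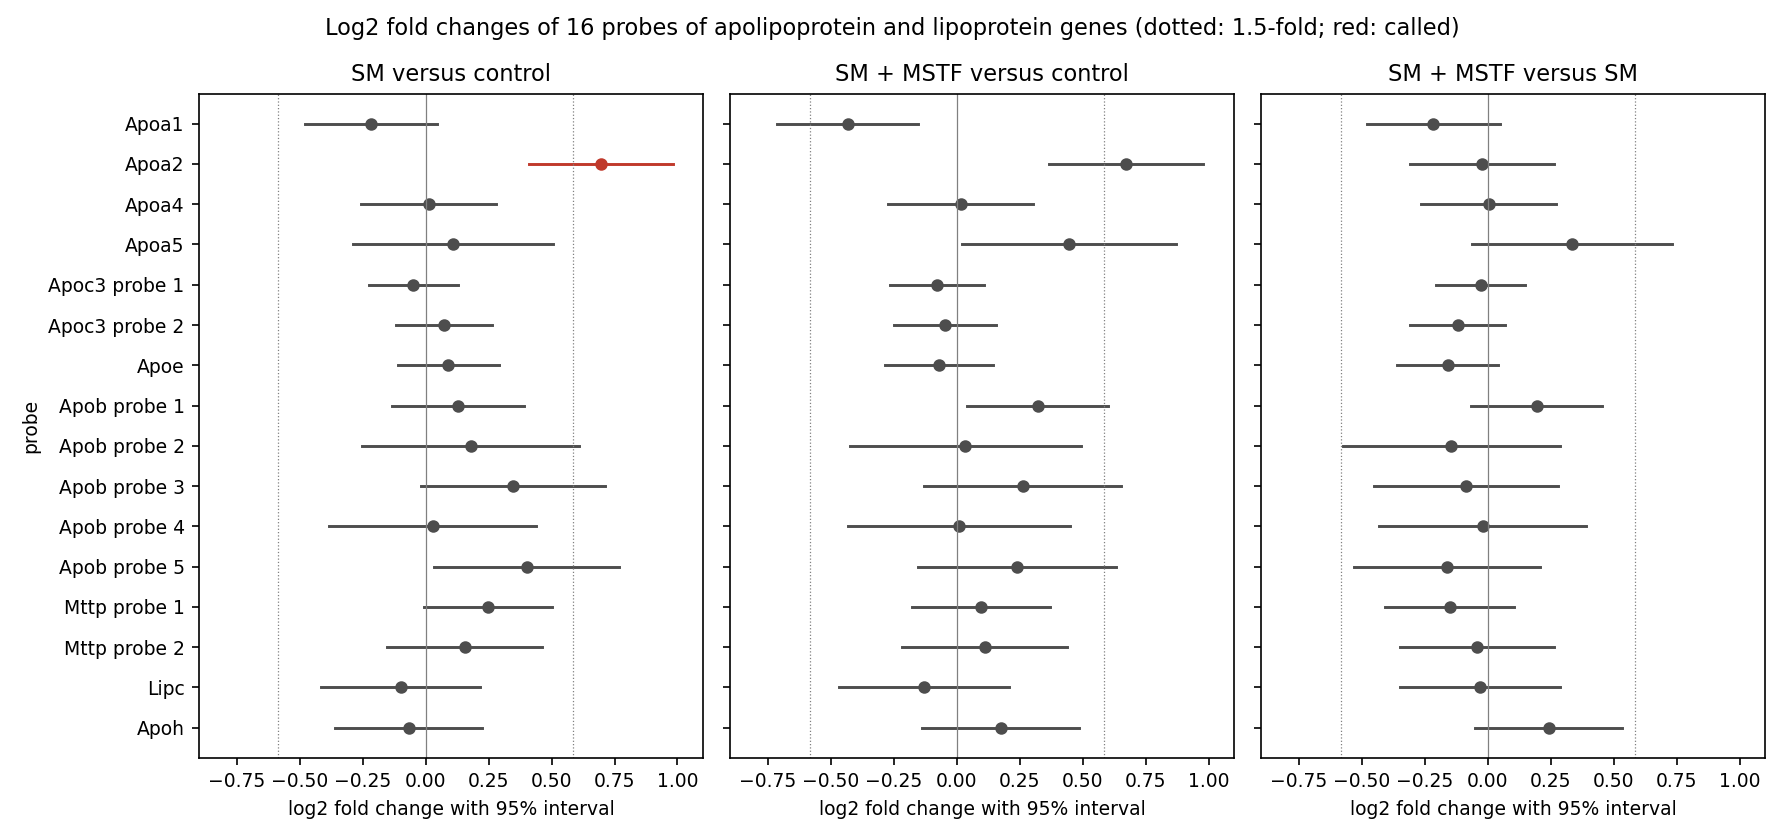
Log2 fold change of each of the 16 probes with its 95% interval (horizontal axes) for, from left to right, SM against control, SM + MSTF against control and SM + MSTF against SM; dotted lines mark 1.5-fold and red marks a called probe. Only Apoa2 in SM versus control, at 0.69, is red, and the third panel has no interval that leaves 0 out.

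Counted over the 16 probes, SM versus control had 1 called probe (Apoa2, higher), where 2.41% of all tested probes were called. Of the 16, 2 had an unadjusted p under 0.05 with limma (Apoa2 and Apob probe 5), where 16.4% of all probes did, and 3 had groups that did not overlap (Apoa2 and Mttp probe 1 above the controls, Apoa1 below), where 18.0% of all did. In sign, 12 probes were above 0 and 4 below, where 12853 of all 22991 tested probes were above and 10138 below. The median difference was 0.10 against 0.03 over all tested probes. Apob has 5 of the 16 probes, all above 0. Counted by gene on the brightest probe, 6 were above 0 and 4 below, with a median of 0.05. The shares by unadjusted p and by overlap are near the background, and the call is that of 1 gene.

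In SM + MSTF versus control 0 of the 16 were called, where 0% of all tested probes were. An unadjusted p under 0.05 was reached by 4 probes (Apoa1, Apoa2, Apoa5 and Apob probe 1), where 9.54% of all reached it, and the same 4 had groups that did not overlap, where 15.4% of all did. The median difference was 0.06 against 0.00459 over all tested probes. By the methods' t-test at an unadjusted p under 0.05 and 1.5-fold, 1 gene (Apoa2) passed, where 1.24% of all tested probes did, and after Benjamini-Hochberg adjustment 0 did. The same unadjusted test passed Apoa2 alone in SM versus control, where 4.92% of all probes passed, and 0 member genes between the treated groups, where 3.75% did.

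SM + MSTF versus SM compares SM rats with and without MSTF. These groups share no slide, and gavage is described for the MSTF rats only, so MSTF, slide and gavage cannot be told apart. In this comparison 0 of the 16 were called, where 1.26% of all tested probes were. An unadjusted p under 0.05 by limma was reached by 0 of the 16, where 15.9% of all reached it. All 16 had groups that overlapped, where 14.7% of all tested probes did not overlap. The median difference was -0.04 against -0.02 over all tested probes. The differences farthest from 0 were those of Apoa5 at 0.33 and Apoh at 0.24, and the smallest adjusted p was 0.375.

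The rest of lipoprotein metabolism was followed in 5 lists of 74 genes, 63 with a probe and 59 tested, each read by its brightest probe: other apolipoproteins, particle assembly and secretion, lipases and plasma remodelling, receptors and lipid export, and transcriptional regulators. In SM versus control 1 of the 59 was called (1.69%, where 2.41% of all tested probes were), the regulator Nr1d1. SM + MSTF against control gave 0 called of 59, where 0% of all were, and SM + MSTF against SM gave 1, again Nr1d1, where 1.26% of all were. An unadjusted p under 0.05 by limma was reached by 8, 8 and 10 of the 59 in the same order, where 16.4%, 9.54% and 15.9% of all tested probes reached it. The median difference of the 59 was 0.05, 0.04 and -0.00353 in the same order, with 33, 33 and 29 genes above 0. None of the 7 other apolipoproteins tested, the 15 genes of particle assembly and secretion, the 8 of lipases and plasma remodelling or the 12 of receptors and lipid export was called in any of the 3.

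Nr1d1 encodes REV-ERB alpha, a nuclear receptor that represses its targets in the circadian clock and is known to bind apolipoprotein gene promoters in liver. It was at 7.89, 7.92 and 7.17 in the controls, 6.90, 6.73, 6.55 and 6.94 after SM, and 7.72, 7.75 and 8.09 after SM + MSTF. All SM rats lay below all others. Nr1d1 fell after SM by 0.88 on the log2 scale (SE 0.19, 1.84-fold, adjusted p = 0.0471 with limma) and was 1.07 higher in SM + MSTF than in SM (SE 0.19, 2.11-fold, adjusted p = 0.0317), with SM + MSTF at 0.20 from the controls (SE 0.21). Control 3 lay well below the other controls; without it the SM difference was -1.12. The first call was lost without control 1 or 2, any single SM array, or SM + MSTF replicate 1 or 2 (adjusted p up to 0.182), and the second without any single SM or SM + MSTF array (up to 0.0931). SM and slide 2 cannot be told apart here either. The clock time at which each liver was taken is not given in the sources used here.

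The other genes named are, in each list, those with the smallest F-test p, and none of them was called. Angptl4, whose product inhibits lipoprotein lipase, was at 11.05, 10.76 and 10.82 in the controls, 10.72, 9.89, 10.22 and 10.90 after SM, and 11.16, 12.02 and 11.62 after SM + MSTF. The SM + MSTF rats lay above all others, 1.17 above SM (SE 0.26, adjusted p = 0.0697 with limma) and 0.72 above the controls (adjusted p = 0.477). Lpl, lipoprotein lipase itself, was at -0.41 in SM versus control (adjusted p = 0.252 with limma) and at -0.13 in SM + MSTF versus control. In the 14 alternatives planned beforehand that keep all arrays, its SM difference was -0.43 to -0.20.
Prox1, a hepatocyte factor, was at 6.15, 6.05 and 6.10 in the controls, 5.42, 5.81, 5.78 and 5.81 after SM, and 6.24, 6.37 and 6.03 after SM + MSTF. Its SM rats lay below all others, by 0.50 against SM + MSTF (adjusted p = 0.0976 with limma). Lrp1, a remnant receptor, was 0.43 above control after SM and 0.55 after SM + MSTF on its brighter probe (adjusted p = 0.24 and 0.424), and 0.27 and 0.06 on its other probe. Mylip, which marks the LDL receptor for degradation, was at -0.33 after SM (adjusted p = 0.154) and -0.07 after SM + MSTF.

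**Figure D5:**
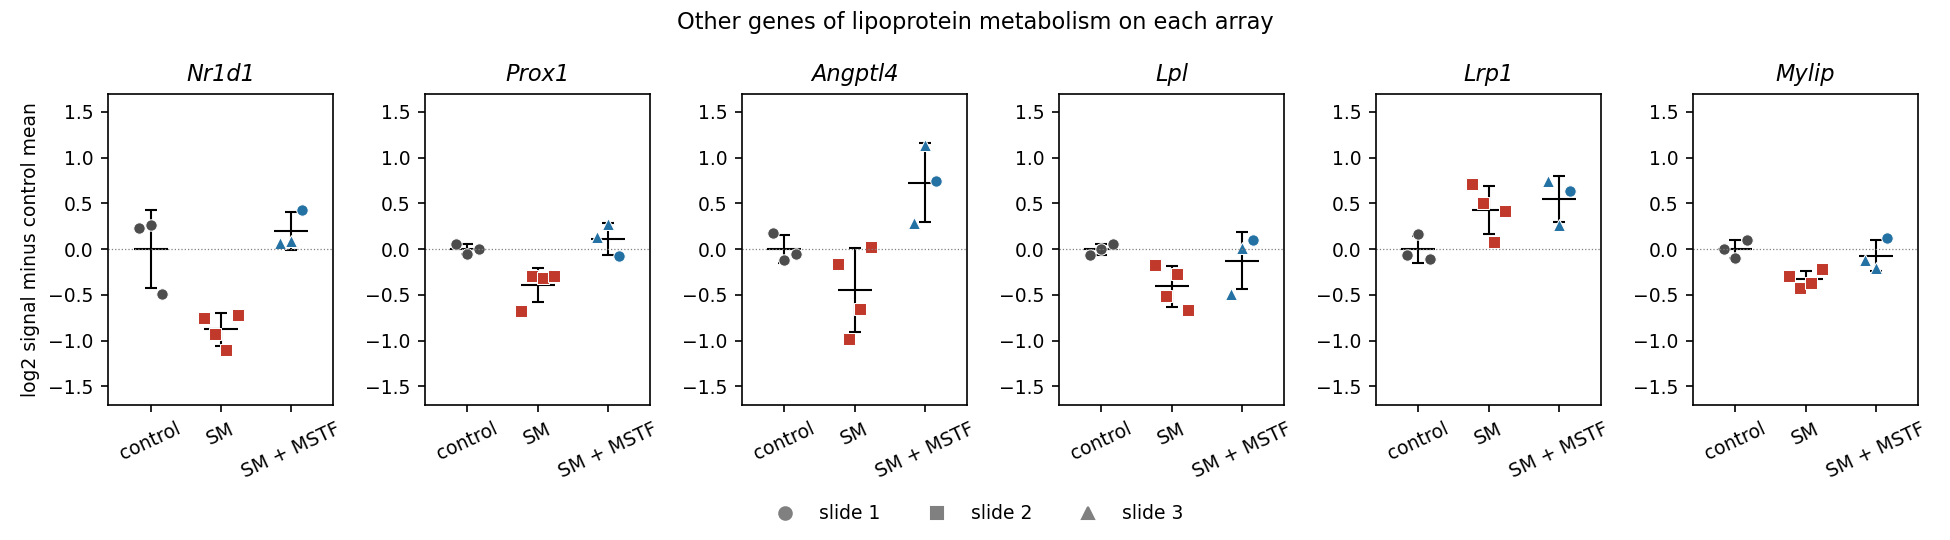
Nr1d1, Prox1, Angptl4, Lpl, Lrp1 and Mylip on each array, as log2 signal minus the mean of the 3 controls (vertical axes); points are rats, shape is the slide, bars are the group mean ± SD. Nr1d1 shows all 4 SM rats below the 3 controls and the 3 SM + MSTF rats at or above the control mean.

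The remaining 4 named genes belong to the secretory side. Clu, which encodes the HDL-borne chaperone clusterin, was 0.25 above control after SM and 0.33 after SM + MSTF (adjusted p = 0.307 and 0.459 with limma), with no overlap in either. Apoc2, the lipoprotein lipase cofactor, was at 0.05 and -0.16. Surf4, a cargo receptor for lipoprotein export, was at -0.14 and -0.29, and Tmem41b, a lipid scramblase of VLDL assembly, at -0.15 and -0.28. For Surf4 and Tmem41b all SM + MSTF rats lay below all controls, and the adjusted p was 0.459 and 0.448.

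Since Apoa2 was the only member called, the named genes with the most similar pattern were looked up, by the smallest root mean square difference of signals centred on their means over the 10 arrays, among 3930 candidates whose SD was at least 0.75 of that of Apoa2. They were Mrpl38 at 0.16, a mitochondrial ribosomal protein gene, Ehhadh at 0.16, which encodes the peroxisomal bifunctional enzyme of fatty acid oxidation, and Nav2 at 0.18. In SM versus control Mrpl38 was at 0.61 (adjusted p = 0.0317 with limma), Ehhadh at 0.74 (0.0509) and Nav2 at 0.66 (0.0139). These genes were picked for following Apoa2 over the same arrays, so their differences and p-values are not separate evidence. Control 1 was the lowest array for Apoa2 and for each of the 3, which the choice by likeness favours. Mrpl38 was at 5.88 there and 6.47 to 6.72 in the SM rats, and Ehhadh at 10.78 and 11.64 to 12.09. Nav2 was at 4.94 and 5.52 to 5.77. Mrpl38 and Nav2 were thus far dimmer than Apoa2, which was at 16.51 to 17.61 over all arrays. Likeness over 10 arrays of 3 groups is a description only.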

How the data were processed

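Liver RNA of 10 rats (3 control, 4 SM, 3 SM + MSTF) was measured on single-colour arrays. The authors read the images with Agilent Feature Extraction 10.7 and deposited each spot's background-subtracted intensity; they also deposited log2 values after quantile normalization in GeneSpring, used here as an alternative. From the intensities, control features and non-uniform spots were dropped, arrays were quantile normalized, put on the log2 scale and averaged per probe (R 4.3.3, limma 3.58.1, statmod 1.5.0). The files hold no mean signal, so normexp used the median signal. Probes were named through accessions in RefSeq's GRCr8 table (17512 of 41012); the array was designed on an older assembly, so no probe coordinates are given. Tested were the 22991 probes that passed the software's background mark on all arrays of 1 or more groups, in 1 limma fit (lmFit, eBayes) over all 10 arrays, with Benjamini-Hochberg adjustment over all of them. A gene's value is that of its brightest probe. With 3 or 4 rats per group, precision is low. Each p-value sets a difference between groups against the spread of rats within groups. All controls were on slide 1 and all SM rats on slide 2, so the spread within these groups holds no difference between slides. The p-values of SM versus control therefore do not separate SM from slide. Only the SM + MSTF group was spread over slides, 1 and 3. The procedure was run on simulated data with changes larger than that of Apoa2 planted in the SM group and no slide effect. That run does not bear on a call of the size of Apoa2 or on the slides. Members and lists were chosen with earlier results of these data known. Named are all members with every probe, list genes called in any comparison, the 2 of each list with the smallest F-test p, and the 3 genes likest each called member. The Apoa1 and Apoa2 comparison, and centring on the brightest spots, were added after the values were seen. A further promoter motif that had been listed is not reported here.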

Additional observations from a re-analysis of the deposited data

How the results depend on the processing

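The difference of Apoa2 in SM versus control kept its sign in all 25 alternatives and stayed at 0.61 to 0.75 in the 15 that keep all arrays, in 12 of which it was called. The number of member genes called in SM versus control, 1 in the reported setting, was 0 with the methods' t-test after Benjamini-Hochberg adjustment (adjusted p = 0.0977), with the replicate block (0.0754, difference 0.71) or slide as a random block, and 0 to 1 when 1 array was left out. In the F-test it was 1, and 0 with normexp, with no filter on dim probes, with the replicate block, slide as a random block and arrays centred on their brightest spots (chosen after the values were seen; it moved the median of all probes in SM versus control from 0.03 to -0.09, and Apoa2 to 0.61), and 0 to 1 with 1 array left out. In SM + MSTF versus control it was 0, and 1 by the methods' t-test without adjustment. Of the other lipoprotein genes, 1 was called in SM versus control and 0 with 75th percentile scaling, normexp, no filter, only probes above background on all 10 arrays, only the groups compared, the adjusted t-test, the replicate block or the slide as a random block, and 2 by the unadjusted t-test. In SM + MSTF versus SM the count was 1, and 0 with normexp, no filter, the adjusted t-test, the replicate block or the slide as a random block, and 3 by the unadjusted t-test; the F-test count of 1 became 0 with normexp, no filter, the replicate block and the random block. With 1 array left out these 3 counts were 0 to 1. Over all probes the 553 calls in SM versus control were 53 with the replicate block, 85 with the random block, 217 with normexp, 342 with no filter and 1131 by the unadjusted t-test, and 65 to 718 with 1 array left out; the 290 in SM + MSTF versus SM were 13 to 863 in the alternatives that keep all arrays, and the 0 in SM + MSTF versus control reached 158 when slide was a fixed block (the treated side is then 1 array, replicate 3), 250 without SM + MSTF replicate 3 and 285 by the unadjusted t-test. Rats of the same replicate number in different groups had correlations of deviations of -0.0991 to 0.169. Pairs of unlike number are not given beside them, so these values do not settle whether the numbers pair the rats. Of 760 member values under alternatives 34 had the other sign, none of them called and none over 0.19 in size in the reported setting. The cause of these losses was not tested. Signal over background per array was 2.2 to 2.54.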
